A study of Homo sapiens with 4 samples.

Results

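The mitochondrial ribosomal protein genes are the nuclear genes for the protein subunits of the ribosome inside mitochondria. They were taken from the count table by symbol alone, as MRPL or MRPS followed by digits and at most 1 final letter, with pseudogenes and antisense names left out. This gave 78 of the 28103 genes in the table. The rule itself uses no measured value, but it was chosen with earlier results of these data known. Of the 78, 77 passed the filter on low counts and were tested among 13572 genes. The remaining gene, MRPS24, had a count of 0 in each library.

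Poly(A) RNA was sequenced from HEL, an established human erythroleukaemia cell line, in 4 libraries. The 2 Ctrl libraries carry the genotype WT in the labels and the 2 AFF4_KD libraries the genotype AFF4 knockdown. AFF4 holds together the super elongation complex, which lets RNA polymerase II leave its paused state near promoters, and that release is what the series set out to study. All 4 libraries came from cells grown in the same RPMI-1640 medium with serum. How AFF4 was knocked down, for how long, and in how many clones or cultures was not given in the sources used here. Hence the p-values cover only the spread among these libraries, and part of it may be technical.

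The libraries held 14903878 to 19129008 counts. AFF4 was at 88.3 and 69.2 CPM (the gene's count relative to the scaled library size) in Ctrl 1 and Ctrl 2 and at 18.7 and 18.95 CPM in knockdown 1 and 2, so the groups did not overlap and the direction matched the labels. AFF4 fell in the knockdown, with a log2 fold change at -2.07 ± 0.19 (SE; adjusted p = 0.0268 by edgeR, and 0.0552 when genes had to reach 5 CPM in 2 libraries). Of 13 markers of the erythroid and megakaryocytic features of HEL, 12 were expressed, including the globin HBG1, the master regulator GATA1 and the platelet integrin ITGA2B, and GP1BB was at 0. Of these 12, 1 passed the test, where 0.641% of all tested genes did. HBG1 fell, with 4165 ± 329 CPM in Ctrl against 2292 ± 69.7 CPM in AFF4_KD (mean ± SD, n = 2 each; log2 fold change -0.86, adjusted p = 0.0394 by edgeR). The near-identical HBG2, with which it may share reads, had -0.68 (adjusted p = 0.0641 by edgeR) and the platelet factor PF4 -1.01 (adjusted p = 0.105 by edgeR). EPOR went the other way, with 0.76 (adjusted p = 0.251 by edgeR), at 21.7 and 36.8 CPM in Ctrl against 45.8 and 52.9 CPM in AFF4_KD. The median of the 12 was -0.17, with 4 positive, and their part in the results below was not tested. Of 12 markers of other cell types, 3 passed the filter on low counts (LYZ, PECAM1 and EPCAM), while those of T and B cells and of collagen-producing cells had 0 to 3 counts in a library. In bulk RNA, a change in the make-up of a culture and a change within each cell cannot be told apart.

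Mitochondrial ribosomes translate the few messenger RNAs of the mitochondrial genome, which encode core subunits of the respiratory chain. Their RNA components come from mitochondrial DNA, while all of their proteins are encoded in the nucleus, made in the cytosol and imported. The large subunit joins amino acids and the small subunit decodes the message. Compared with bacterial ribosomes they have lost RNA and gained proteins, so that proteins shared with bacteria sit beside proteins found only in mitochondria. In red cell precursors, mitochondria also carry out steps of heme synthesis.

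Fixed lists, made from textbook knowledge, placed 51 of the 78 in the large subunit and 26 in the small subunit. The large subunit list had 31 proteins of families shared with bacteria and 20 specific to mitochondria, and the small subunit list had 17 and 9. Names and places do not always match: MRPS18A and MRPS30 are proteins of the large subunit. MRPS36, despite its name, is now known as a subunit of the 2-oxoglutarate dehydrogenase complex and was kept apart. The genes are spread over 21 chromosomes, with at most 8 on one, chromosome 1.

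Promoter windows from RefSeq (GRCh38.p14, 250 bases before to 50 after the start site) were available for 69 of the 78 genes. They were searched on both strands for short forms of motifs bound by factors known for nuclear genes of mitochondrial proteins. The sequence AAGATGGC, the core of the motif of the zinc-finger factor YY1, was in 20 of the 69 windows (29%), against 5.52% of 10258 windows of tested genes and 3.03% of all 27305 windows. The ETS-type motif CCGGAAGT, of the kind bound by GABPA, was in 11 (15.9%, against 8.88% and 4.44%), and the NRF1 form, GCGCN followed directly by TGCGC, was in 8 (11.6%, against 11.8% and 6.28%). No 2 matches of different motifs shared a base in a member, and a match describes letters, not binding.

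The AAGATGGC matches lay close to the start site. Of the 21 matches in 20 genes, 15 began after the start site, and the median first base was position 10 counted from the first transcribed base. In 12 of them the ATG inside the motif is an annotated start codon in GENCODE v29, so the same letters also open the coding sequence. The following stretches, written on the gene's strand with the AAGATGGC match in capitals, are shown because they come from genes described below.

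MRPS27 (chr5:72320207-72320234, minus strand): ggtacgctccAAGATGGCtgcctccata
MRPL51 (chr12:6493224-6493251, minus strand): ggtaaggcccAAGATGGCtgtcttcgcc
MRPL46 (chr15:88467363-88467390, minus strand): gggagaacgaAAGATGGCggcgcccgta
MRPS7 (chr17:75261888-75261915, plus strand): gtggccagccAAGATGGCtgcccccgca
MRPS18A (chr6:43687765-43687792, minus strand): taggtttttgAAGATGGCggccctcaag
MRPS18B (chr6:30617853-30617880, plus strand): ggcgtacgtcAAGATGGCggcgtctgta
MRPS24 (chr7:43869481-43869508, minus strand): cgcttggcccAAGATGGCggcctccgtg

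In 6 of these 7 the ATG is the annotated start codon, with MRPL51 as the exception. For the 2 genes whose log2 fold changes were the most negative, the other motifs are shown in the same way. The NRF1 form in MRPS33 is first and the ETS form in MRPL3 second. The match in MRPS33 is on the other strand, so its capitals are the reverse complement of the NRF1 form given above.

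MRPS33 (chr7:141015088-141015117, minus strand): tagccttactGCGCAGGCGCcaggtacacc
MRPL3 (chr3:131502986-131503013, minus strand): gtaaaacgcaCCGGAAGTgggtccggcg

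The first base of the match is 155 bases before the start site in MRPS33 and 32 bases before it in MRPL3. Median log2 fold changes were 0.12 over 19 tested genes with the AAGATGGC motif and 0.03 over 49 without it, and the genes with it ranged from -0.30 to 0.35. With the ETS form the median was 0.15 over 11 genes, and with the NRF1 form -0.06 over 8. Genes with and without each motif covered overlapping ranges.

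Levels were compared between genes as RPKM, here the CPM divided by the length in kilobases of all annotated exons of the gene in GENCODE v29. That length counts rarely used exons too, which lowers the value of genes such as MRPL42, with 16393 bases. The 77 genes had a median of 23.4 RPKM over the 4 libraries, against 5.84 RPKM for all tested genes, and ranged from 4.22 to 106 RPKM. This gap includes a difference in length, with a median of 2539 bases in the members and 4914 over all tested genes. Without division by length the medians in Ctrl were 59.3 and 28 CPM. The median was 25.8 RPKM in the large subunit and 22.7 RPKM in the small subunit.

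**Figure D1:**
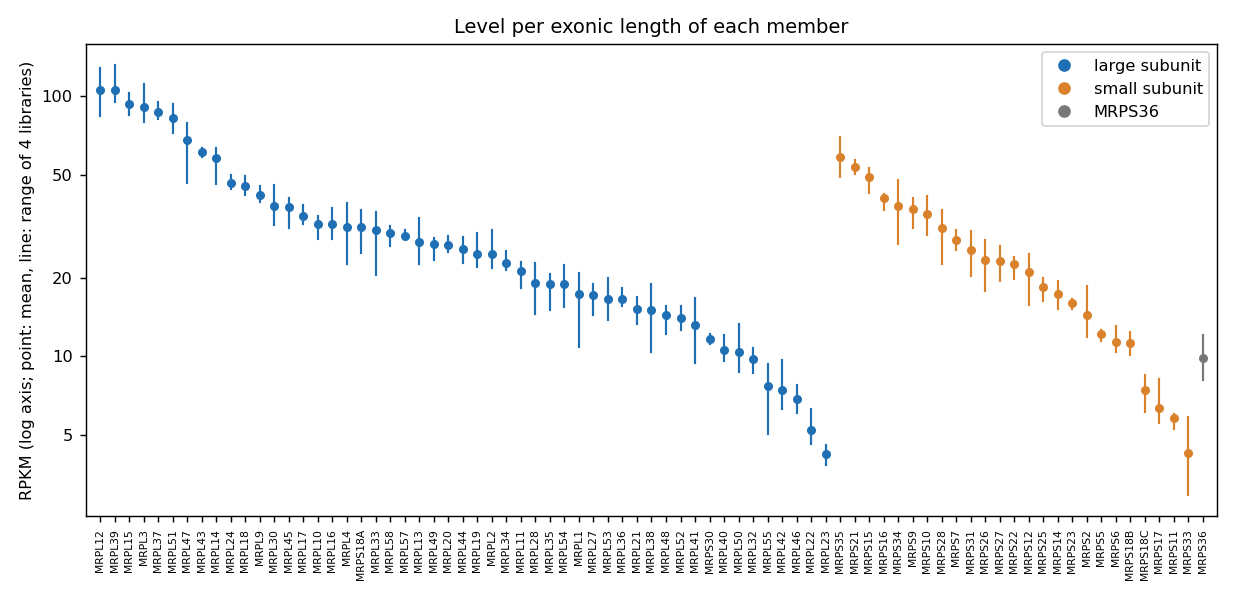
Level of each of the 77 tested genes in RPKM (log axis), ordered within the large subunit (blue), the small subunit (orange) and MRPS36 (grey); points are means of the 4 libraries and lines run from the lowest to the highest library. The levels span 4.22 to 106 RPKM, and all but 1 of the 50 neighbouring pairs in the large subunit and all but 2 of the 24 in the small subunit overlap.

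MRPL12 and MRPL39 were the most abundant of the large subunit per length. MRPL12, the counterpart of the bacterial stalk protein that recruits translation factors and a protein also known to bind mitochondrial RNA polymerase, was at 83.6 and 128.6 RPKM in Ctrl against 101.6 and 108.2 RPKM in AFF4_KD. MRPL39, which has a region related to threonyl-tRNA synthetase, was at 131.3 and 95.7 RPKM in Ctrl against 99.0 and 95.1 RPKM in AFF4_KD. Their ranges over the libraries overlapped, so their order is not resolved. In the order of all 77, each of the 76 neighbouring pairs had overlapping ranges. In the small subunit MRPS35 (mean 58.2 RPKM) and MRPS21 (mean 53.5 RPKM), the counterpart of bacterial S21, led, again with overlapping ranges. MRPL23 (4.22 RPKM) and MRPS33 (4.23 RPKM) were the lowest tested members.

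The summed level of the genes was about the same in both groups. All 77 tested members together took 5578 and 5288 CPM in Ctrl 1 and Ctrl 2 and 5522 and 5518 CPM in knockdown 1 and 2. Both knockdown values lay between the Ctrl values. The large subunit took 3818 and 3676 CPM in Ctrl against 3704 and 3717 CPM in AFF4_KD, which also lay between the Ctrl values. The small subunit took 1741 and 1599 CPM in Ctrl against 1802 and 1788 CPM in AFF4_KD. Both knockdown libraries lay above both Ctrl libraries, and were closer to Ctrl 1 than Ctrl 2 was.

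Gene by gene, no mitochondrial ribosomal protein gene passed the test at an adjusted p under 0.05. Of 77 tested, 0 were higher and 0 lower in the knockdown (edgeR quasi-likelihood test, adjusted over all genes), where 0.641% of all tested genes passed (0.346% higher and 0.295% lower). DESeq2 and limma-voom also called 0, where they called 2.99% and 0.678% of all genes. Other settings with 0 members called, beside the share of all genes called, were RLE size factors (0.648%), upper quartile scaling (0.641%), library size only (0.545%), no filter on low counts (3.89%), the 5 CPM filter (0.0462%), the length correction (0.582%) and the replicate block (6.54%). At an unadjusted p under 0.05, MRPS27 was higher and MRPS33 and MRPL3 were lower, 3 of 77 where 15% of all tested genes had such a p (6.79% higher and 8.19% lower). No member differed by 2-fold or more, while 4.02% of all tested genes did.

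The fold changes were small and of both signs. The median log2 fold change was 0.05, beside -0.0089 over all tested genes, with 46 positive and 31 negative, and the values ran from -0.67 to 0.54. In 65 of the 77 (84.4%) the log2 fold change was under 0.25 in size, against 58.8% of all tested genes. The 95% interval of the log2 fold change lay within 2-fold in either direction for 75 of the 77 (97.4%), against 75.5% of all tested genes. The exceptions were MRPS33, with a lower bound of -1.18, and MRPL1, with an upper bound of 1.12. For 39 members the interval lay within 1.5-fold. The members had a median of 59.3 CPM in Ctrl, against 28 CPM over all tested genes, and the part of this level in these shares was not tested.

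**Figure D2:**
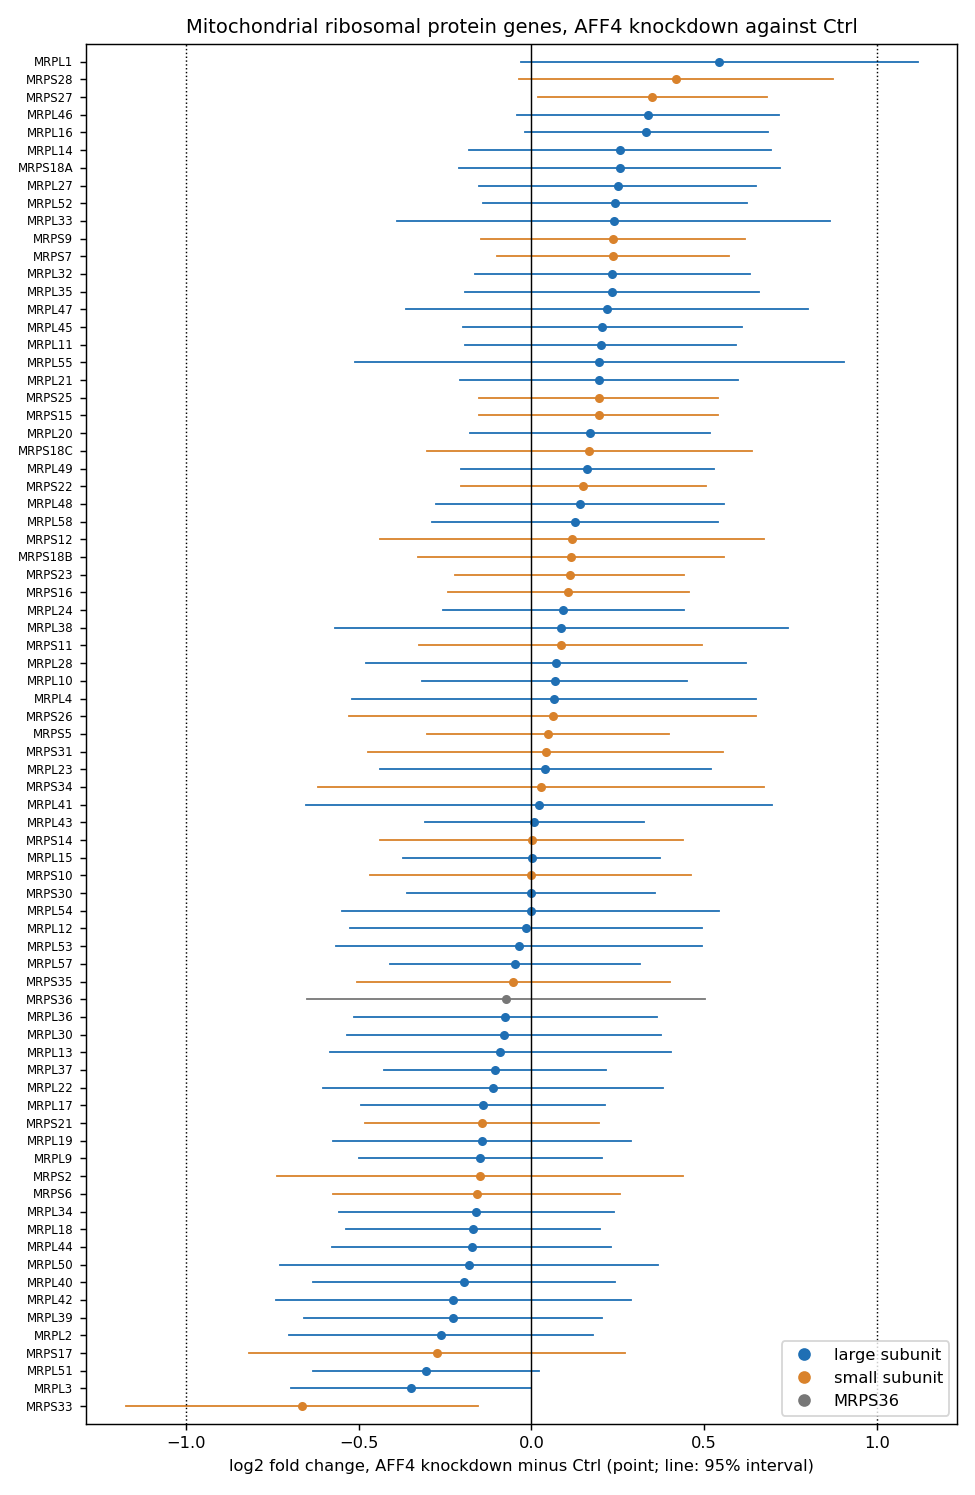
Log2 fold change of each tested gene in the AFF4 knockdown against Ctrl (point) with its 95% interval (line), ordered by value; blue is the large subunit, orange the small subunit and grey MRPS36, and dotted lines mark 2-fold. The points run from -0.67 for MRPS33 to 0.54 for MRPL1, and 75 of the 77 intervals lie inside the dotted lines.

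Each list of subunit proteins had a median near 0. The large subunit had a median of 0.02 (28 of 51 positive) and the small subunit 0.09 (18 of 25 positive). Proteins shared with bacteria had medians of 0.07 in the large subunit (19 of 31 positive) and 0.10 in the small subunit (11 of 16). Those specific to mitochondria had medians of -0.0019 in the large subunit (9 of 20 positive) and 0.06 in the small subunit (7 of 9). Of all tested genes 48.8% were positive. In each of these lists 0 genes passed in either direction, and the difference between the lists was not tested.

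In the large subunit the lowest values were those of MRPL3, MRPL51, MRPL2 and MRPL39. MRPL3 (chromosome 3, 131462212 to 131502983, minus strand, GRCh38), the counterpart of bacterial L3 at the core of the subunit, was at 302.3 and 250.3 CPM in Ctrl against 217.9 and 216.1 CPM in AFF4_KD. Both knockdown libraries lay below both Ctrl libraries, and the log2 fold change was -0.35 ± 0.15 (SE; adjusted p = 0.331 by edgeR). MRPL51, a protein specific to mitochondria, was at 144.8 and 137.5 CPM in Ctrl against 112.0 and 116.6 CPM in AFF4_KD. Its groups did not overlap either, with a log2 fold change at -0.30 ± 0.14 (SE; adjusted p = 0.374 by edgeR). MRPL2, the counterpart of bacterial L2 close to the peptidyl transferase centre, was at 58.8 and 77.7 CPM in Ctrl against 55.5 and 58.3 CPM in AFF4_KD, a log2 fold change at -0.26 ± 0.19 (SE). Its Ctrl libraries differed from each other more than Ctrl 1 did from the knockdown. MRPL39 was at 157.4 and 114.7 CPM in Ctrl against 118.7 and 114.0 CPM in AFF4_KD, so that its groups overlapped and only Ctrl 1 stood apart. Without Ctrl 1 its log2 fold change was 0.02.

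At the other end of the large subunit were MRPL1, MRPL46, MRPL16 and MRPL14. MRPL1 (chromosome 4, 77862520 to 77952790, plus strand), the protein of the mobile stalk by which spent tRNA leaves, was at 33.6 and 21.0 CPM in Ctrl against 40.5 and 39.3 CPM in AFF4_KD. The groups did not overlap, but Ctrl 2 was far below Ctrl 1, and the log2 fold change, 0.54 ± 0.24 (SE; adjusted p = 0.361 by edgeR), became 0.93 without Ctrl 1 and 0.25 without Ctrl 2. MRPL46, specific to mitochondria, was at 39.2 and 39.0 CPM in Ctrl against 49.0 and 49.9 CPM in AFF4_KD. Its Ctrl libraries were nearly equal and both lower than the knockdown libraries, with a log2 fold change at 0.34 ± 0.16 (SE; adjusted p = 0.392 by edgeR). MRPL16, the counterpart of bacterial L16, was at 65.6 and 63.9 CPM in Ctrl against 84.1 and 79.1 CPM in AFF4_KD (log2 fold change 0.33 ± 0.15, SE; edgeR adjusted p = 0.363). MRPL14, which binds the assembly factor MALSU1 that keeps the subunits apart, was at 44.0 and 57.2 CPM in Ctrl against 60.1 and 60.6 CPM in AFF4_KD. Here only Ctrl 1 was clearly below the others.

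The small subunit held the most negative value of all members. MRPS33 (chromosome 7, 141002610 to 141015228, minus strand), a small protein specific to mitochondria, was at 30.8 and 23.8 CPM in Ctrl against 19.01 and 15.4 CPM in AFF4_KD. Both knockdown libraries lay below both Ctrl libraries, and the log2 fold change was -0.67 ± 0.22 (SE; 95% interval -1.18 to -0.16; edgeR adjusted p = 0.217). MRPS17, MRPS6 and MRPS2, counterparts of bacterial S17, S6 and S2, followed with log2 fold changes of -0.27, -0.16 and -0.15. In each of these 3 a knockdown library reached the Ctrl range. MRPS2, at 29.2 and 45.7 CPM in Ctrl against 30.5 and 37.0 CPM in AFF4_KD, had a log2 fold change of 0.21 without Ctrl 2 and -0.44 without Ctrl 1.

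MRPS28, MRPS27, MRPS9 and MRPS7 had the largest positive values in the small subunit. MRPS28, related to bacterial S1, was at 55.2 and 41.2 CPM in Ctrl against 66.4 and 62.5 CPM in AFF4_KD (log2 fold change 0.42 ± 0.19, SE; edgeR adjusted p = 0.376). MRPS27 (chromosome 5, 72219409 to 72320646, minus strand), a pentatricopeptide repeat protein specific to mitochondria, was at 139.6 and 126.7 CPM in Ctrl against 173.4 and 166.0 CPM in AFF4_KD. Its log2 fold change was 0.35 ± 0.14 (SE; adjusted p = 0.308 by edgeR). MRPS9 was at 70.1 and 59.4 CPM in Ctrl against 75.1 and 77.5 CPM in AFF4_KD. MRPS7, like MRPS9 a protein of the head of the subunit, was at 85.1 and 85.3 CPM in Ctrl against 101.6 and 99.1 CPM in AFF4_KD, with a log2 fold change at 0.24 ± 0.14 (SE; adjusted p = 0.509 by edgeR). In all 4 genes both knockdown libraries were above both Ctrl libraries.

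**Figure D3:**
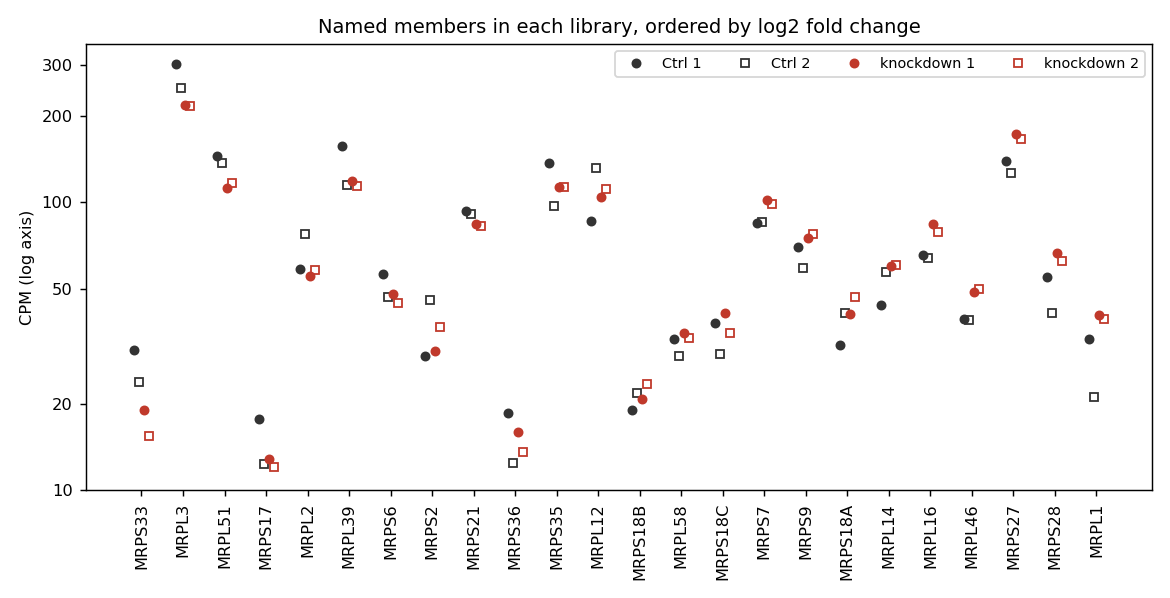
CPM (log axis) of the named genes in each library, ordered by log2 fold change; black is Ctrl and red the knockdown, filled circles are library 1 and open squares library 2 of each group. The knockdown libraries of a gene lie close together, as for MRPL3 at 217.9 and 216.1 CPM, while the Ctrl libraries are often far apart, as for MRPL12 at 86.0 and 132.2 CPM.

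Groups that do not overlap were about as common here as over all tested genes. Both knockdown libraries lay above both Ctrl libraries in 24 members and below them in 11, together 45.5% of the 77, where 46.1% of all tested genes were separated (23.1% higher and 23% lower). In 29 members (37.7%) both knockdown libraries lay between the Ctrl libraries, as in 33.7% of all tested genes.

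The 3 paralogs share the MRPS18 name and a family with bacterial S18, but take different places in the ribosome. MRPS18A, in the large subunit, was at 32.0 and 41.4 CPM in Ctrl against 40.8 and 46.7 CPM in AFF4_KD. MRPS18B, in the small subunit, was at 19.1 and 21.8 CPM in Ctrl against 20.8 and 23.4 CPM in AFF4_KD. MRPS18C, which holds the place of bacterial S18 in the small subunit, was at 38.1 and 29.8 CPM in Ctrl against 41.2 and 35.1 CPM in AFF4_KD. In all of them the groups overlapped, with log2 fold changes of 0.26 ± 0.20, 0.12 ± 0.19 and 0.17 ± 0.20 (SE).

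Members with roles beyond the ribosome gave values near no change. MRPL12 was at 86.0 and 132.2 CPM in Ctrl against 104.5 and 111.2 CPM in AFF4_KD, with a log2 fold change at -0.02 ± 0.22 (SE), 0.325 without Ctrl 2 and -0.29 without Ctrl 1. MRPL58, a peptidyl-tRNA hydrolase of the release factor family that can free stalled ribosomes and is built into the large subunit, was at 33.6 and 29.3 CPM in Ctrl against 35.0 and 33.7 CPM in AFF4_KD (log2 fold change 0.13 ± 0.18, SE). MRPS36 was at 18.5 and 12.4 CPM in Ctrl against 15.9 and 13.6 CPM in AFF4_KD, with both knockdown libraries inside the Ctrl range.

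The count of 0 for MRPS24, the counterpart of bacterial S3, cannot be read as lack of expression. It allows up to 3 counts in a library, or 0.161 to 0.201 CPM, for counting error only. In GENCODE v29 its exons are also those of the read-through gene URGCP-MRPS24 on the same strand, which had a count of 0 in each library too. The treatment of reads shared by overlapping genes was not given in the sources used here. Among the 78 genes, 16 have exons that overlap another gene on the same strand and 29 on the opposite strand, 41 in all, and their counts are uncertain to that extent. Several members also have processed pseudogenes that could share reads.

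In most members the Ctrl libraries differed from each other more than the groups did. Across the 77 genes the log2 difference of Ctrl 2 from Ctrl 1 ran from -0.80 (MRPL33, 55.0 and 31.6 CPM) to 0.89 (MRPL55, 9.48 and 17.6 CPM), with a median size of 0.28. The log2 difference of knockdown 2 from knockdown 1 ran from -0.30 to 0.28, with a median size of 0.07. In 56 members (72.7%) the difference between the Ctrl libraries was larger than the log2 fold change of the knockdown, against 64.3% of all tested genes. These are unlike measures. A difference between single libraries tends to be larger than one between groups of 2, even where nothing changes. The precision of every test here rests on the spread between libraries of a group.

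The difference between the Ctrl libraries followed the GC content of the transcript. Spearman's rho across the 77 genes was 0.83, as a description across genes of the same pair of libraries (0.82 over 13220 tested genes with a value), and it was 0.51 between the knockdown libraries. In the 26 members with the lowest GC content (35% to 45.6%), 25 were lower in Ctrl 2 than in Ctrl 1, with a median log2 difference of -0.44. In the 25 with the highest (53% to 72%), 5 were lower and the median was 0.38. The log2 fold change of the knockdown had a rho of 0.05 with GC content. MRPL47, at 38.0% GC, was at 108.0 and 63.7 CPM in Ctrl against 102.7 and 97.4 CPM in AFF4_KD. MRPL38, at 64.6% GC, was at 38.0 and 69.2 CPM in Ctrl against 54.3 and 59.5 CPM in AFF4_KD. What made the Ctrl libraries differ was not tested.

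**Figure D4:**
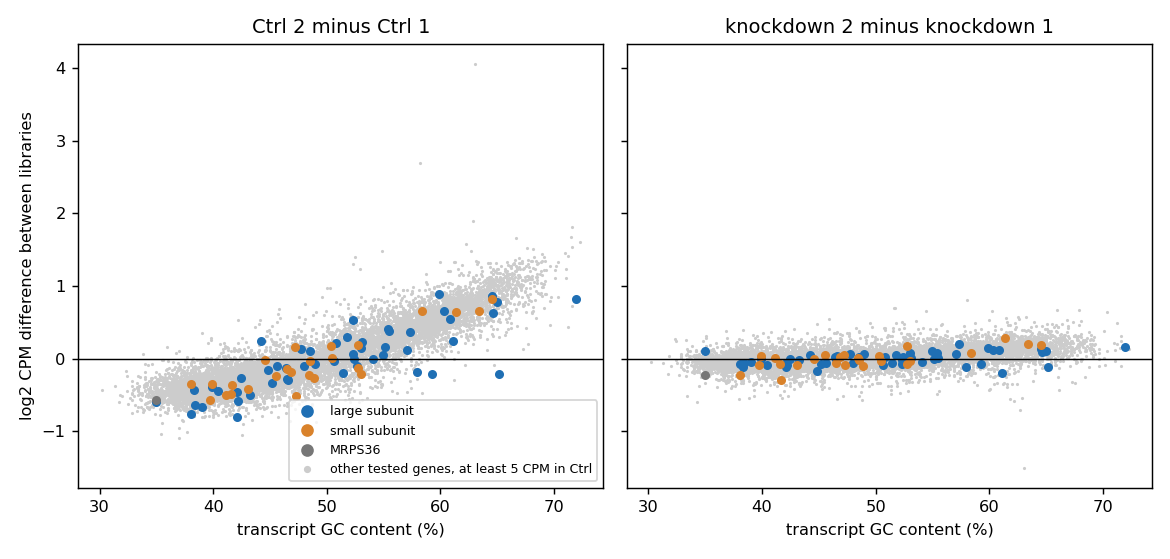
Log2 CPM difference between the Ctrl libraries (left) and between the knockdown libraries (right) against transcript GC content in percent; blue is the large subunit, orange the small subunit, dark grey MRPS36 and light grey other tested genes with at least 5 CPM in Ctrl. On the left the members run from -0.80 to 0.89 and increase with GC content, and on the right they stay between -0.30 and 0.28.

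Taking the GC trend out of each library brought calls. After that correction 11 members were higher and 5 lower (edgeR, adjusted p under 0.05), 20.8% of the 77, where 30.3% of all genes passed (14.9% higher and 15.4% lower). With the replicate block as well they were 20 and 10, where 40.6% of all genes passed (20.2% and 20.4%). The 11 were MRPL1, MRPL14, MRPL16, MRPL35, MRPL46, MRPL52, MRPS7, MRPS9, MRPS18A, MRPS27 and MRPS28, and the 5 were MRPL2, MRPL3, MRPL39, MRPL51 and MRPS33. All 16 had the same sign as without the correction, which is not independent evidence, as both fits used the same 4 libraries. The sizes stayed small, from -0.64 for MRPS33 to 0.59 for MRPL1 on the log2 scale. Their share was below that of all genes.

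Leaving out a Ctrl library brought more calls, among the members and among all genes. The members' median level in Ctrl was 59.3 CPM, against 28 CPM over all tested genes, and its part in these calls was not tested. Without Ctrl 1, 23 members were higher and 15 lower, 49.4% of the 77 (44% of all genes passed, 21.5% higher and 22.5% lower). Without Ctrl 2, 24 were higher and 20 lower, 57.1% of the 77 (48.4% of all genes passed, 24.5% higher and 23.9% lower). In these fits the lone Ctrl library is assumed to vary as little as the knockdown libraries do, although the Ctrl libraries differed more from each other. Of the 20 members called in both, 11 were called in opposite directions, among them MRPL4, MRPL12, MRPL28, MRPL38, MRPL41 and MRPS34, which were lower against Ctrl 2 alone and higher against Ctrl 1 alone. Without knockdown 1 or knockdown 2, 0 members passed, where 0.331% and 0.366% of all genes did.

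Against either Ctrl library and after the GC correction alike, 6 members passed as higher and 3 as lower, a combination chosen after the values were seen. The 6 were MRPL1, MRPL16, MRPL46, MRPS7, MRPS27 and MRPS28, and the 3 were MRPL3, MRPL51 and MRPS33. These 9 are 11.7% of the 77, where 16.3% of the genes in all 3 fits passed in the same way (8.09% higher and 8.23% lower). MRPS33 had log2 fold changes of -0.46 against Ctrl 2 alone and -0.84 against Ctrl 1 alone, and MRPL3 had -0.20 and -0.48. MRPS7 moved least of the 9, with 0.24 in both, and MRPL46 had 0.35 and 0.33.

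**Figure D5:**
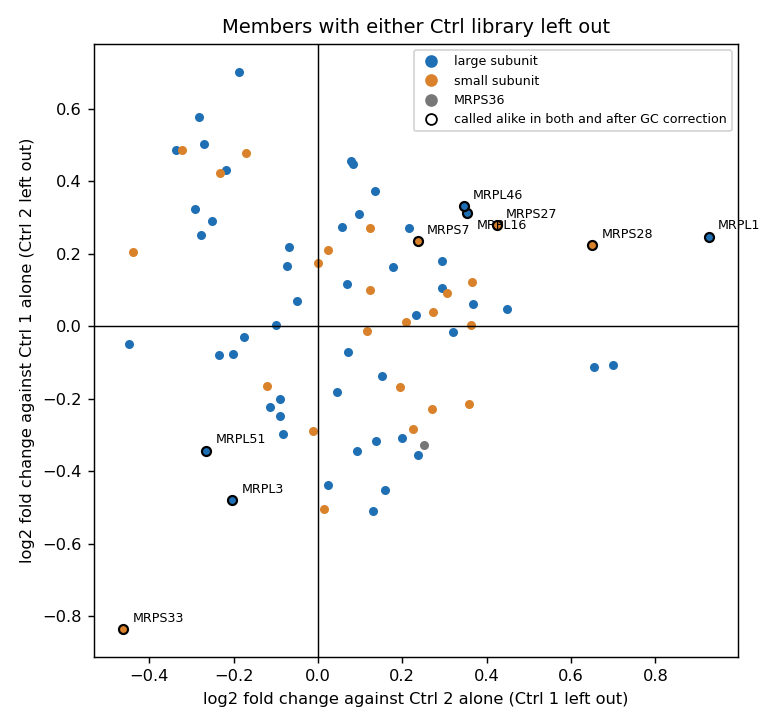
Log2 fold change of each member against Ctrl 2 alone (horizontal axis) and against Ctrl 1 alone (vertical axis); blue is the large subunit, orange the small subunit and grey MRPS36, and black rings mark the 9 genes called alike in both fits and after the GC correction. The upper left and lower right hold members whose sign depends on the Ctrl library used, while MRPS33 at -0.46 and -0.84 and MRPL1 at 0.93 and 0.25 keep theirs.

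Subunits of the mitochondrial ribosome with other names gave the same picture. Of 5 tested, 4 were positive and 0 passed (edgeR; 0 at an unadjusted p under 0.05). Shares over all tested genes were 48.8% positive, 0.641% passing and 15% with such an unadjusted p. DAP3, a GTP-binding protein of the small subunit, was at 192.4 ± 23.0 CPM in Ctrl against 241.0 ± 10.6 CPM in AFF4_KD (mean ± SD, n = 2 each), with a log2 fold change of 0.32 (edgeR adjusted p = 0.366). AURKAIP1, another small subunit protein, had a log2 fold change at -0.19 ± 0.30 (SE), and its Ctrl libraries differed widely.

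Factors that build the ribosome were more often positive than negative. Of 28 tested, 22 had a positive log2 fold change, with a median of 0.13, but 0 passed in edgeR (with an unadjusted p under 0.05, 1 was higher and 1 lower). Over all tested genes 48.8% were positive, 0.641% passed and 15% had such an unadjusted p. MRM1, which methylates the RNA of the large subunit, had the largest positive value, 0.49 ± 0.25 (SE; 13.4 ± 4.09 CPM in Ctrl against 18.8 ± 1.32 CPM in AFF4_KD; edgeR adjusted p = 0.430). MALSU1, which prevents early joining of the subunits, was the lowest, at 16.8 ± 0.764 CPM in Ctrl against 10.8 ± 0.0167 CPM in AFF4_KD (mean ± SD, n = 2 each). Its log2 fold change was -0.64 ± 0.19 (SE; adjusted p = 0.181 by edgeR).

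Among factors that act on the ribosome during translation, 9 of 17 were positive and 0 passed in edgeR (with an unadjusted p under 0.05, 1 was lower). The initiation factor MTIF2 had the lowest value, from 114.8 ± 20.01 CPM in Ctrl to 78.3 ± 1.52 CPM in AFF4_KD (log2 fold change -0.55 ± 0.17, SE; edgeR adjusted p = 0.199). The inner membrane insertase OXA1L had the highest, 0.29 ± 0.15 (SE; adjusted p = 0.426 by edgeR). Factors of mitochondrial transcription and DNA maintenance had 6 of 11 positive and 0 past the test, from MTERF1 at -0.26 to TFB2M, a transcription factor of the mitochondrial genome, at 0.28 (edgeR; 0 at an unadjusted p under 0.05). Beside both lists, 48.8% of all tested genes were positive, 0.641% passed and 15% had such an unadjusted p.

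Nuclear regulators of genes for mitochondrial proteins also had 0 of 11 tested past the edgeR test (with an unadjusted p under 0.05, 1 was higher and 1 lower). The shares over all tested genes were 0.641% past the test and 15% with such an unadjusted p. The factors whose motifs were searched above were nearly level: YY1 was at 132.1 ± 13.3 CPM in Ctrl against 133.6 ± 6.57 CPM in AFF4_KD, NRF1 at 21.2 ± 1.32 and 21.2 ± 1.47 CPM, and GABPA at 62.3 ± 13.6 and 59.2 ± 0.635 CPM (mean ± SD, n = 2 each). MYC had the highest value, 0.33 ± 0.12 (SE; adjusted p = 0.275 by edgeR), and SP1 the lowest, -0.34 ± 0.14 (SE; adjusted p = 0.309 by edgeR). The coactivator PPARGC1A was at 0 in all libraries.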

How the data were processed

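The authors' deposited table holds whole-number counts of reads per gene, 1 column per library, matched to the samples by name. Per the submitters' processing notes the build was hg38 and the tools featureCounts 1.6.1, HISAT2 2.1.0 and fastp 0.13.1, named without role; annotation, strand setting and the handling of multi-mapped reads were not given in the sources used here. Counts were filtered by filterByExpr (minimum count 10, total 15), scaled by TMM and fitted with the group as the only term in edgeR 4.0.16 (R 4.3.3), with quasi-likelihood F tests, p-values adjusted by Benjamini-Hochberg over all genes and called at an adjusted p under 0.05. Each SE is the size of the log2 fold change over the square root of F, and the 95% interval uses the test's degrees of freedom. TMM holds most genes as unchanged, so fold changes are relative. Positions, exonic lengths and GC content (longest coding transcript) came from GENCODE v29 (GRCh38). The GC correction is a lowess trend (span 0.4) of log2 CPM per library, used as an offset. Alternatives used limma 3.58.1 and DESeq2 1.42.0. The procedures were tested on simulated data. In the simulation of the edgeR test both groups had the same spread, whereas the Ctrl libraries here differed more than the knockdown libraries. That simulation does not show how the test behaves with unequal spread. The members and lists were chosen with earlier results of these data known. Genes named are those with the 4 highest and 4 lowest log2 fold changes (given 5 CPM or more in either group) and the 2 highest levels per length in each subunit, paralogs and members of known other roles, any not tested, and the extremes of each related list; others were chosen after their values were seen.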

Additional observations from a re-analysis of the deposited data

How the results depend on the processing

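An adjusted p under 0.01, counted among the 16 alternatives, is the reported fit at a stricter threshold, so no sign could change there. AFF4 kept its direction in all 16 alternatives. It lost its call with at least 5 CPM in at least 2 libraries (-2.10; edgeR adjusted p = 0.0552) and at an adjusted p under 0.01 (-2.07). Members called higher and lower were 11 and 5 after the GC correction, and 20 and 10 with the replicate block and GC correction, where 40.6% of all genes passed. With 1 library left out they ran from 0 to 24 higher and 0 to 20 lower. They were 0 and 0 under RLE, upper quartile and library-size scaling, both filters, the length correction, DESeq2, limma-voom and an adjusted p under 0.01. The median log2 fold change of the members stayed between 0.02 (stricter filter) and 0.12 (without knockdown 1), and moved from the reported 0.05 by less than the SD between library medians of the members (0.0741). Over all genes the calls were 87 as reported, 734 with no filter, 5 with the stricter filter, 406 in DESeq2, 4007 after the GC correction, 5364 with block and GC correction, 6119 without Ctrl 1, 6722 without Ctrl 2, 46 without knockdown 1, 51 without knockdown 2, and 3 at an adjusted p under 0.01.

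The replicate block alone called 0 members and 888 genes. Same-numbered libraries share only a number in the labels. Across genes, the difference of library 2 from library 1 in Ctrl was compared with that in the knockdown. Pearson's correlation was 0.285 over all tested genes and 0.678 over the members, and Spearman's rho was 0.417 and 0.678. Both differences followed GC content. In Ctrl and the knockdown, rho with GC content was 0.83 and 0.51 in the members and 0.82 and 0.41 over all tested genes.

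Named members passed the threshold only with the GC correction, with or without the replicate block, or without a Ctrl library. Of all genes, 30.3% passed with the GC correction and 40.6% with block and GC correction. The shares without a Ctrl library are given above. Of the values of named members under the alternatives, 308 kept direction and side of the threshold, 60 passed it in the same direction and 16 changed sign. Of these 16, 2 also passed it, MRPL12 without Ctrl 2 and MRPS35 without Ctrl 1. The sign changes were those of MRPL12 (-0.02 as reported) with library size only (0.0098), limma-voom (0.0231), the replicate block (0.0153), the GC correction (0.0283), block and GC correction (0.0292), the length correction (0.0134), without Ctrl 2 (0.325) and without knockdown 1 (0.05). With 1 library left out, MRPL12 ran from -0.292 to 0.325, MRPL39 from -0.437 to 0.0231, MRPS17 from -0.505 to 0.0147, MRPS35 from -0.283 to 0.225, MRPS36 from -0.326 to 0.25 and MRPS2 from -0.439 (without Ctrl 1) to 0.205 (without Ctrl 2), with 0.0073 without knockdown 1. For MRPL39, MRPS17, MRPS35 and MRPS36 the lowest value was without Ctrl 2 and the highest without Ctrl 1. MRPS36 was at 8.7e-04 with block and GC correction and 0.04 without knockdown 2. The cause was not tested. Over all 77 tested members, 41 kept their sign in every alternative. The same count was not made over all tested genes. The members' median level in Ctrl was 59.3 CPM.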

Other observations

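Many of these genes share a start region with a neighbour on the other strand. Of the 78, 17 (21.8%) have a protein-coding gene on the opposite strand whose start site lies within 1000 bases upstream in GENCODE v29. Among 12131 tested protein-coding genes the share was 9.88%. MRPL46 and MRPS11 are such a pair with each other, with start sites 34 bases apart, and had log2 fold changes of 0.34 and 0.09. The mitochondrial ribosomal genes MRPL47 and MRPL36 face NDUFB5 and NDUFS6, subunits of respiratory complex I, at 36 and 34 bases. MRPL47 and NDUFB5 had log2 fold changes of 0.22 and -0.11, and MRPL36 and NDUFS6 had -0.07 and 0.05. MRPL18 and TCP1, a subunit of the cytosolic chaperonin, had -0.17 and -0.16. Of the partners tested 0 passed in edgeR (adjusted over all genes), where 0.641% of all tested genes passed.

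Names that the symbol rule left out were read too. MRPL20-AS1, an antisense gene, was at 30.2 ± 9.72 CPM in Ctrl against 40.3 ± 1.199 CPM in AFF4_KD (mean ± SD, n = 2 each), with a log2 fold change equal to 0.42 ± 0.24 (SE; adjusted p = 0.490 by edgeR). MRPL20 itself had 0.17. Without a stated strand setting, reads from any stretch that both genes of this pair cover could not be told apart. The divergent transcript MRPS30-DT and the pseudogenes MRPS31P5 and MRPL45P2 had 0.06, 0.20 and 0.30, and did not pass. MRPL23-AS1 and MRPL42P5 had at most 7 counts in a library.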
